A study of Mus musculus with 25 samples.

Results

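The genes described here are 9 that handle cholesterol and stored fat: Apoe, Abca1, Abcg1, Nr1h3, Plin2, Soat1, Nceh1, Lpl and Lipa. They were picked by symbol from 23351 genes in a table of mouse oligodendrocyte precursor cells (OPC), the dividing glia that give rise to myelin-forming cells. The symbols were chosen from values of these same libraries, mainly the rise of lipid efflux genes at Day 5 against control, so for these genes that comparison is given as a description, and no p-value of theirs in it is used. The tissue was cut from mouse brain by laser capture microdissection, a microscope-guided excision that can take neighbouring cells along. There were 10 libraries labelled Control, 8 labelled white matter stroke at Day 5 and 7 labelled white matter stroke at Day 15, where white matter stroke is an ischemic lesion of the fibre tracts. The labels used here give no strain, genotype or age, do not say whether controls were sham operated, and do not tie libraries to mice. P-values therefore measure the spread between libraries, which may be partly technical, and they are too small where libraries share a mouse.

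Cells that take up dead membrane, above all myelin, receive more cholesterol than they can break down. Acid lipase in the lysosome (Lipa) frees the cholesterol, Soat1 turns it into esters that are stored in lipid droplets coated by Plin2, and Nceh1 is an ester hydrolase that can free it again. Free cholesterol leaves through the transporters Abca1 and Abcg1 onto apolipoprotein E (Apoe), and Nr1h3, the sterol-sensing nuclear receptor LXR alpha, drives the genes of this route. Lpl releases fatty acids from lipoprotein particles. In the brain, astrocytes and phagocytes are known as main sources of Apoe.

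Promoter sequences are shown first because several of these genes are textbook targets of nuclear receptors that read repeats of the hexamer AGGTCA. LXR is known to bind 2 such hexamers in the same direction with 4 bases between them, and PPAR receptors 2 with 1 base between them. RefSeq promoter windows (build GRCm38.p6, whereas the expression values were made on mm9) were found for 7 of the 9 genes, 10 windows in all, and both strands of the 250 bases before each start were searched for the closest match of either repeat. Printed below are the windows in which the closest match had at most 3 mismatches in its 12 hexamer letters, written along the gene's own strand, with the match in capitals.

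Abca1, chr4:53159896-53160145, minus strand: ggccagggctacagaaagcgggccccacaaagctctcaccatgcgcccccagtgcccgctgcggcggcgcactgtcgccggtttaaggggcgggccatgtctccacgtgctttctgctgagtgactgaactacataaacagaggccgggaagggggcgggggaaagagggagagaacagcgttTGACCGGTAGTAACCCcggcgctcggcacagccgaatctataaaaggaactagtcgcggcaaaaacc
Plin2, chr4:86670060-86670309, minus strand: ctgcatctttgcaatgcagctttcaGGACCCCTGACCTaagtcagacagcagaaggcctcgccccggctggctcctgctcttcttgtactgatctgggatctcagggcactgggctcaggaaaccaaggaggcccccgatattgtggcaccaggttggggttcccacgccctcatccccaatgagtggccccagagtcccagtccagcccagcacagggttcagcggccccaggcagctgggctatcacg
Apoe, chr7:19699189-19699438, minus strand: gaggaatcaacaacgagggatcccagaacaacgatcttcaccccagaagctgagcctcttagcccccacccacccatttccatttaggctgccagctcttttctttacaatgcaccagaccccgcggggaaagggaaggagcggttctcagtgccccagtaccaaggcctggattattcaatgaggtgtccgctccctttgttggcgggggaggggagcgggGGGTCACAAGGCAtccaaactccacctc

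In the Abca1 window the match was to the repeat with 4 bases between, at -67 to -52 from the start, and read on the opposite strand it is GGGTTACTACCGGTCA. It had 3 mismatches, and 18.5% of 32851 promoter windows held a match as close. In the Plin2 window the match was to the repeat with 1 base between, at -225 to -213 on the opposite strand, with 2 mismatches, a closeness reached by 3.24% of windows. The Apoe match, at -28 to -16 of the most upstream of its 3 starts in the table, was also to the repeat with 1 base between, with 3 mismatches, as in 21.3% of windows. In every other window of these genes the closest match to either repeat had 4 or 5 mismatches. For each repeat, at least 70.6% of windows held a match as close or closer. A match is a description of letters and says nothing about binding in these cells.

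The libraries differed in how much they held, which bears on every value below. The RPKM unit divides reads by a gene's length and by its library's reads, so that levels are meant to be comparable between genes. Which reads and lengths were used here is unknown. The RPKM sum of a library without the gene Rn45s was 7210 to 33982 in controls (median 18175). It was 15070 to 69709 at Day 5 (median 36697) and 11722 to 51081 at Day 15 (median 35366). Between 1306 to 4320 genes reached 1 RPKM in a control (median 2330), 2353 to 6592 at Day 5 (median 4007) and 1749 to 5266 at Day 15 (median 2509). The number of reads per library is unknown, and amplified cDNA from few cells loses transcripts at random. Day 15 replicate 5 and Day 5 replicate 4 were as alike across groups as the closest libraries within one (Pearson r = 0.43 over 4319 genes, against 0.42 for Day 5 replicates 9 and 10 and a median of 0.26 over 300 pairs). Day 15 changes of Apoe, Abca1, Plin2 and Lipa, which are high in Day 15 replicate 5, are also given without it. Changes are fitted differences in log2(RPKM + 1), a scale that understates changes of low genes. Of the 9 genes, 8 passed the filter (1 RPKM or more in no fewer than 7 libraries), and Nr1h3 did not.

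The labelled cell type was unevenly marked. The OPC receptor Pdgfra reached 1 RPKM in 3 of 10 controls, 6 of 8 Day 5 libraries and 1 of 7 Day 15 libraries, and the OPC proteoglycan Cspg4 in 1, 3 and 3. Also on the OPC list, Olig2 reached it in 4, 1 and 0, and Sox10 in 7, 7 and 4. The summed RPKM of 10 OPC markers ran from 5.09 to 107 in controls, 15.7 to 105 at Day 5 and 10.4 to 50.9 at Day 15. By contrast the sum of 18 macrophage and leukocyte markers ran from 2.31 to 109 in controls, 156 to 2619 at Day 5 and 48.5 to 590 at Day 15, and that of 20 microglia markers from 14.0 to 136, 113 to 797 and 77.8 to 1672. No marker of these 3 lists was at 0 in every library of a group. Among leukocyte markers, Cd163 and S100a8 stayed under 1 RPKM in every library. The summed RPKM of 10 markers of myelinating oligodendrocytes was 129 to 1281 in controls (median 639). It was 93.2 to 1191 at Day 5 (median 248) and 44.3 to 555 at Day 15 (median 168). All 9 genes are expressed by phagocytes as well, and the part of those cells in the results was not tested. In captured tissue, more cells of a type and more RNA per cell cannot be told apart.

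At Day 5 of stroke all 8 tested genes stood above control, as did 84.9% of all tested genes, and the gap was widest for the lipid droplet coat Plin2 and the lipid carrier Apoe. Plin2 and the ester hydrolase Nceh1 were higher in each of the 8 Day 5 libraries than in any of the 10 controls. The share of all tested genes that did so was not counted, so nothing is read from this gap. Of the 8, 6 passed the limma threshold (adjusted p under 0.05), where 6.02% of all tested genes passed it as higher and 0.0232% as lower. Since this comparison chose the genes, nothing is read from that count, and with each library's number of detected genes in the fit it was 0. The changes were then 3.30 for Plin2, 2.55 for Apoe, 1.73 for Nceh1, 1.68 for Lpl, 1.28 for Abca1 and 0.90 for Soat1. The median change of the 8 was 2.24 and ran from 1.46 to 3.95, while all tested genes had a median of 0.61.

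**Figure D1:**
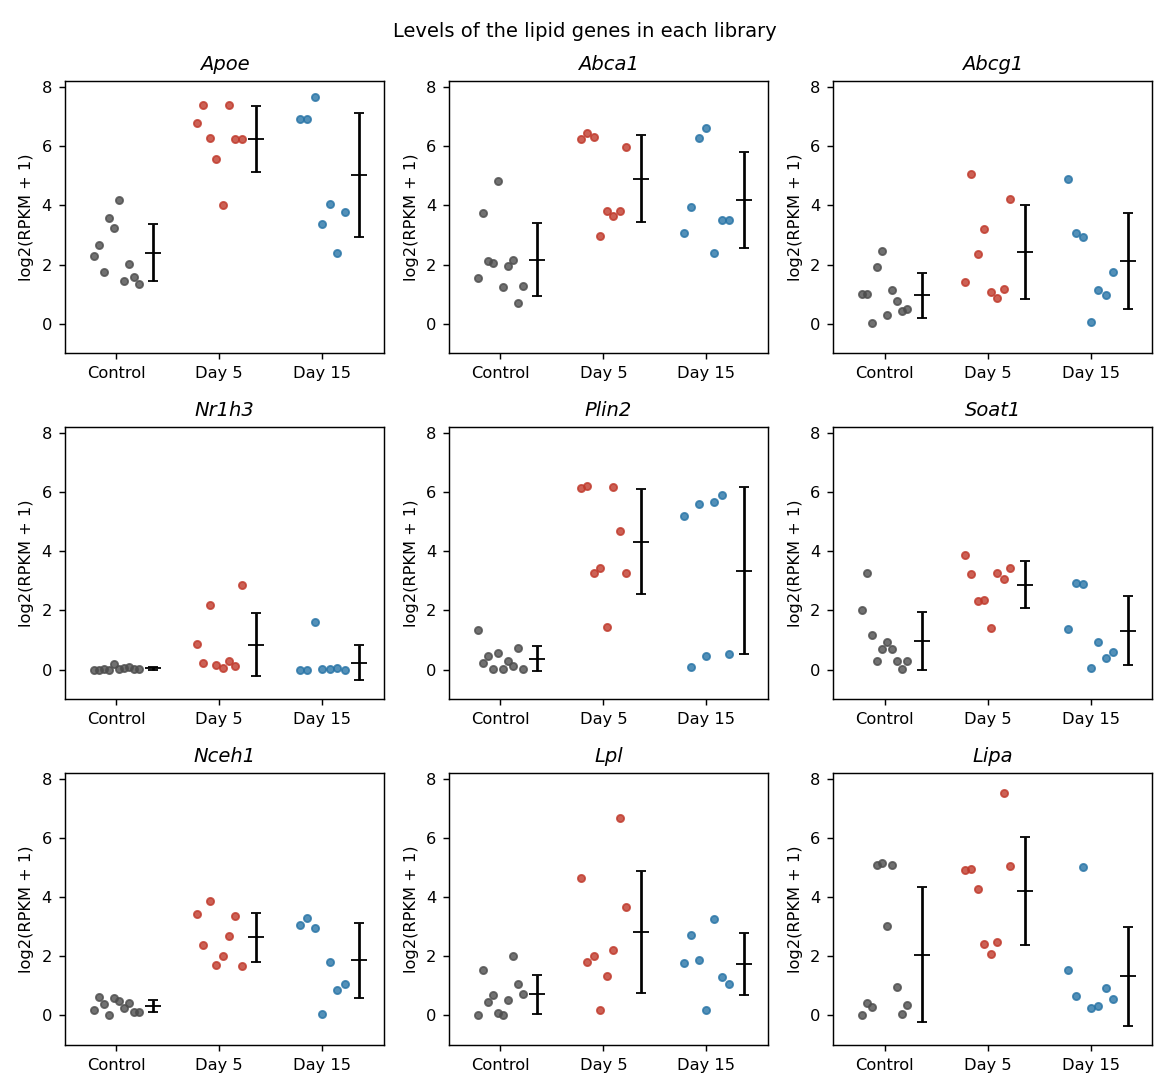
Level of each of the 9 lipid genes as log2(RPKM + 1), 1 point per library (10 Control, 8 Day 5, 7 Day 15), with the group mean and SD as a black bar at its right. Plin2 and Nceh1 points do not overlap between Control and Day 5 (the share of all tested genes that do so was not counted). At Day 15 Plin2 splits into 4 high and 3 low libraries.

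Among the efflux genes, Apoe had the highest level at Day 5. It ran from 1.51 to 17.2 RPKM in controls (median 3.49), from 15.0 to 168 at Day 5 (median 76.0) and from 4.30 to 203 at Day 15 (median 15.6). In 7 of 8 Day 5 libraries Apoe exceeded the highest control, Control replicate 6, and Day 5 replicate 7 alone fell within the control range. Within a library its rank among 4319 genes, which no scaling alters, had a median of 694.5 in controls, 49.5 at Day 5 and 110 at Day 15. The mean was 5.63 ± 5.10 RPKM (SD, n = 10) in controls and 91.7 ± 54.2 RPKM (SD, n = 8) at Day 5, a fitted change of 3.83 (SE 0.73).

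Abca1, the exporter that loads cholesterol onto apolipoproteins and whose promoter is printed above, ran from 0.63 to 27.0 RPKM in controls (median 2.99), from 6.72 to 86.6 at Day 5 (median 37.7) and from 4.29 to 97.9 at Day 15 (median 10.4). At Day 5 the values formed 2 sets, with replicates 1, 3, 4 and 10 at 62.4 to 86.6 RPKM and replicates 6, 7, 8 and 9 at 6.72 to 13.0. Only the upper set exceeded Control replicate 5, the highest control. The upper set were also the 4 Day 5 libraries with the most genes detected (4709 to 6592, against 2353 to 3304), and the part of this in the result was not tested. The fitted change was 2.74 (SE 0.71).

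Abcg1, the partner exporter that hands cholesterol to lipoprotein particles, was lower and more scattered. It ran from 0.017 to 4.54 RPKM in controls (median 0.85), from 0.81 to 32.1 at Day 5 (median 2.89) and from 0.032 to 28.5 at Day 15 (median 2.38). Day 5 replicates 3, 6 and 10 exceeded every control and the other 5 lay inside the control range. Its change of 1.46 (SE 0.62) was the smallest of the 8.

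Nr1h3, the LXR alpha receptor, was near the limit of detection. It stayed at or under 0.14 RPKM in all 10 controls, with 3 of them at 0. It exceeded 1 RPKM in Day 5 replicates 4 and 10, at 3.55 and 6.16, and in Day 15 replicate 5, at 2.04, while 3 Day 15 libraries were at 0. Without the filter its fitted Day 5 change was 0.80 (SE 0.32). In each of those 3 libraries the other 8 genes also reached 1 RPKM. They did so too in Day 5 replicates 1, 3, 7 and 9 and in Day 15 replicate 2, where Nr1h3 lay from 0 to 0.81 RPKM.

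Of the storage genes, Plin2 changed most. It ran from 0.00090 to 1.50 RPKM in controls (median 0.19), where 1 of 10 libraries reached 1 RPKM, and from 1.69 to 73.1 at Day 5 (median 17.1). Day 5 replicates 1, 3 and 8 held 69.4 to 73.1 RPKM, and replicate 7, the lowest, still exceeded every control. Its median rank moved from 3664 of 4319 genes in controls to 298 at Day 5. The fitted change was 3.95 (SE 0.76).

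Of the genes described here, Nceh1 showed the clearest gap between the ranges of controls and Day 5. It ran from 0 to 0.55 RPKM in controls (median 0.25) and from 2.19 to 13.5 at Day 5 (median 4.79), with a fitted change of 2.32 (SE 0.50). Soat1, the enzyme that esterifies cholesterol, ran from 0.013 to 8.49 RPKM in controls (median 0.62) and from 1.62 to 13.7 at Day 5 (median 7.79), and 3 Day 5 libraries exceeded Control replicate 2, the highest control. Its change was 1.90 (SE 0.54). All 8 Day 5 libraries held Soat1 at 1 RPKM or more, as did 3 of 10 controls.

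The lipases rested on few libraries. Lpl ran from 0 to 3.01 RPKM in controls (median 0.51) and from 0.14 to 99.8 at Day 5 (median 3.34). Its Day 5 mean was 18.3 ± 33.9 RPKM (SD, n = 8), and 6.65 without Day 5 replicate 9, the highest. Its change was 2.11 (SE 0.62), and 1.56 without that library.

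Lipa was the one gene with high controls. It held 32.8, 34.7 and 33.2 RPKM in Control replicates 4, 5 and 7 and 7.12 in Control replicate 6, while the other 6 controls lay from 0.0051 to 0.94. At Day 5 it ran from 3.20 to 182 RPKM (median 23.6), and replicate 9 alone exceeded the highest control. The Day 5 mean was 37.9 ± 59.6 RPKM (SD, n = 8), and 17.2 without Day 5 replicate 9. The fitted change was 2.16 (SE 0.81).

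The order of levels differed between the groups. In controls the medians ran from Apoe at 3.49 RPKM and Abca1 at 2.99 through Abcg1 (0.85), Lipa (0.64), Soat1 (0.62), Lpl (0.51), Nceh1 (0.25) and Plin2 (0.19) to Nr1h3 (0.0065). Neighbours in that order overlapped in range. At Day 5 it ran from Apoe at 76.0 through Abca1 (37.7), Lipa (23.6), Plin2 (17.1), Soat1 (7.79), Nceh1 (4.79), Lpl (3.34) and Abcg1 (2.89) to Nr1h3 (0.20), again with overlapping neighbours.

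Read as a set, a control library held 2 to 5 of the 9 genes at 1 RPKM or more (median 3.5), a Day 5 library 7 to 9 (median 8) and a Day 15 library 2 to 9 (median 6). The mean log2(RPKM + 1) of the 8 tested genes was 0.57 to 2.20 in controls, 2.14 to 4.68 at Day 5 and 1.37 to 4.40 at Day 15. Libraries with more genes detected held higher values. With each group centred on its own mean, that set mean correlated with the number of genes at 1 RPKM or more at Pearson r = 0.78 and Spearman rho = 0.78 over 25 libraries, as a description, since both come from the same libraries. With the log2 RPKM sum without Rn45s, the group-centred set mean correlated at r = 0.69 and rho = 0.75. Control replicate 2, with the most genes detected among controls (4320), had a set mean of 1.68. Day 5 replicate 9, with fewer (3274) and with the highest Lpl and Lipa values, had one of 4.56. The other way round, Day 5 replicate 7 (2353 genes) had 2.14 and Control replicate 5 (3463 genes) 2.20. The part of gene detection in the set means was not tested. The group-centred set mean went with the macrophage and leukocyte markers at r = 0.79 (rho = 0.75) and with markers of myelinating oligodendrocytes at 0.68 (0.78). For OPC markers r was 0.63 (rho = 0.66), for microglia 0.60 (0.67) and for endothelial cells and pericytes 0.50 (0.52). It was 0.40 (0.44) for astrocytes and -0.13 (0.065) for neurons. What these signals contribute was not tested.

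**Figure D2:**
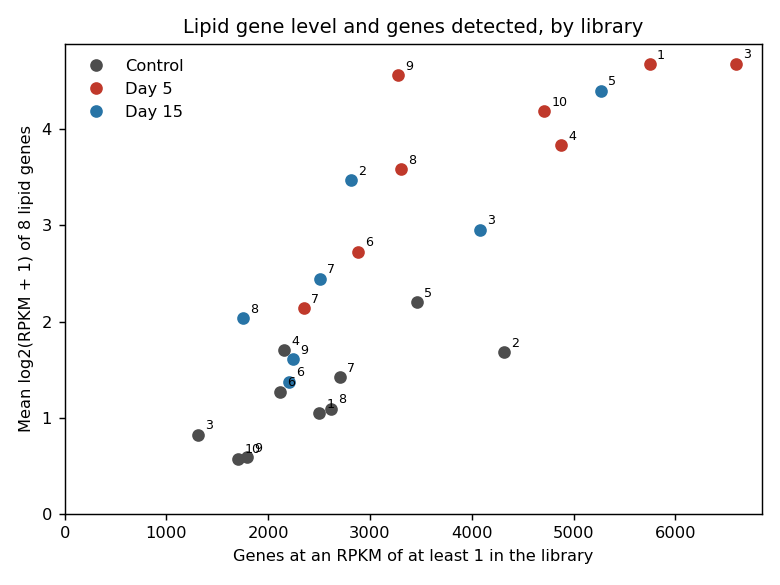
Mean log2(RPKM + 1) of the 8 tested lipid genes (y) against the number of genes at an RPKM of at least 1 (x), 1 point per library, coloured by group and numbered by replicate. Day 5 libraries lie at 2.14 to 4.68 and controls at 0.57 to 2.20, and libraries with more genes detected mostly lie higher.

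Within groups the genes moved together unevenly. Over 28 pairs, the group-centred correlation over 25 libraries had a median r of 0.27, and the median over all 9324721 pairs of tested genes was 0.12. The closest pairs were Apoe with Nceh1 (r = 0.68, rho = 0.68) and Apoe with Soat1 (r = 0.64, rho = 0.70). Abca1 and Plin2 showed no such tie (r = -0.049, rho = -0.12), nor did Abcg1 and Lpl (r = -0.10, rho = 0.031).

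The genes outside the list with the pattern most like the set mean were Leprot (r = 0.84, rho = 0.76), Csf2rb (0.81, 0.85), Trf (0.79, 0.78), Lyst (0.78, 0.78) and Tomm70a (0.77, 0.79), over the same 25 group-centred libraries. The median r over the other 4311 tested genes was 0.29. Csf2rb is a shared chain of cytokine receptors on myeloid cells, Lyst acts in lysosome traffic, and Trf, transferrin, is made by oligodendrocytes. Centring removes group levels, and these differed among the 5: from Day 5 to Day 15 mean RPKM went from 52.0 to 19.1 for Trf and from 1.70 to 1.08 for Leprot. For Csf2rb it went from 4.54 to 22.2, for Lyst from 9.24 to 20.0 and for Tomm70a from 1.27 to 10.8.

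At Day 15 none of the 8 tested genes was called against control, where 0.0926% of all tested genes were called higher. Apoe, Abca1, Plin2 and Nceh1 had an unadjusted p under 0.05 in limma, all higher, 4 of 8 against 7.55% of all tested genes. Nothing is read from that count. This comparison uses the same controls as the Day 5 one, and the Day 15 values were in view when the genes were chosen. The 8 changes had a median of 1.36 (all genes 0.17) and ran from -0.73 for Lipa to 2.97 for Plin2, with 7 above 0.

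Plin2 separated the Day 15 libraries. Replicates 2, 5, 7 and 8 held 35.2, 47.8, 49.6 and 59.1 RPKM, within the Day 5 range, whereas replicates 3, 6 and 9 held 0.053, 0.36 and 0.44, within the control range. The change was 2.97 (SE 0.79, limma adjusted p = 0.0974), and without Day 15 replicate 5 it was 2.59 (limma adjusted p = 0.232). It was called with a pseudocount of 0.1, when only genes averaging 5 RPKM or more were tested, and with library weights (limma adjusted p = 0.00906, 0.00900 and 0.0245).

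Apoe separated them along other lines. Day 15 replicates 2, 3 and 5 held 120, 120 and 203 RPKM, and replicates 6, 7, 8 and 9 held 4.30 to 15.6, inside the control range. Its change was 2.61 (SE 0.75, limma adjusted p = 0.137), or 2.17 without Day 15 replicate 5 (limma adjusted p = 0.335). Replicate 3 thus had high Apoe with Plin2 near 0, and replicates 7 and 8 the reverse.

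Abca1 was high in other libraries again, at 77.4 RPKM in Day 15 replicate 5 and 97.9 in replicate 6, and at 4.29 to 14.5 in the other 5, and the fitted change was 2.04 (SE 0.74, limma adjusted p = 0.314). It was 1.69 without replicate 5 and 1.63 without replicate 6 (limma adjusted p = 0.591 and 0.503). In replicate 6, Nceh1, Soat1, Plin2, Abcg1, Lpl and Lipa were at or below 0.36 RPKM and Apoe was at 9.37. Nceh1 exceeded every control in 6 of 7 Day 15 libraries, at 0.81 to 8.85 RPKM, and its change was 1.55 (SE 0.51, limma adjusted p = 0.255).

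Abcg1 at 1.16 (SE 0.64), Lpl at 1.03 (SE 0.64) and Soat1 at 0.35 (SE 0.56) did not pass (limma adjusted p = 0.613, 0.659 and 0.920), and the sign of Soat1 turned after scaling libraries to one RPKM sum (-0.0065). Lipa had a change of -0.73 (SE 0.84, limma adjusted p = 0.864). It held 31.2 RPKM in Day 15 replicate 5 and 0.18 to 1.86 in the other 6, so its Day 15 mean of 5.06 was 0.703 without that library and the change -1.34 (limma adjusted p = 0.730).

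**Figure D3:**
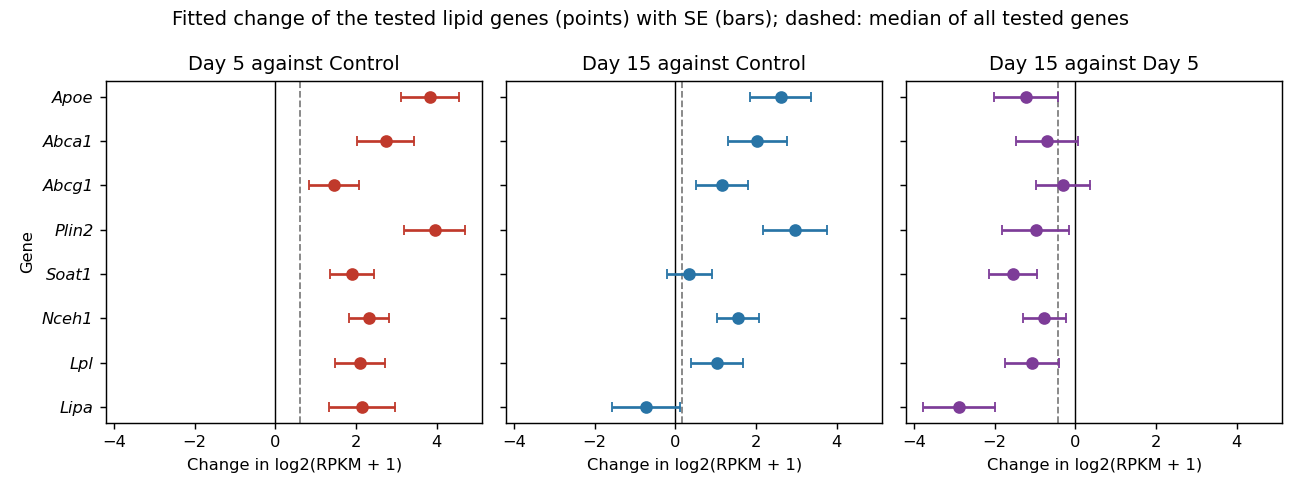
Fitted change in log2(RPKM + 1) of the 8 tested lipid genes (points) with its SE (bars) in the 3 comparisons, and the median of all 4319 tested genes as a dashed line. At Day 5 all 8 lie right of the median of 0.61, and at Day 15 Lipa lies left of 0.

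From Day 5 to Day 15 all 8 changes were below 0 as deposited, as for most tested genes, 24.0% of which lay above 0 (median -0.44). None was called in limma. Lipa, at -2.89 (SE 0.88), and Soat1, at -1.55 (SE 0.59), had an unadjusted p under 0.05, 2 of 8 against 13.9% of all tested genes. Of 7 Day 15 libraries, 6 held less Lipa than the lowest Day 5 library and 5 held less Soat1. For Abcg1 (-0.30), Abca1 (-0.70) and Plin2 (-0.98) the sign turned in some alternative fits. The Day 5 libraries entered the choice of the genes, so a lower second value is a description.

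The labels name no batch, and as a description the changes were also fitted within replicate numbers 1 to 6 and within 7 to 10. At Day 5 these changes were 3.56 and 4.38 for Apoe, 4.33 and 3.60 for Plin2, and 2.91 and 2.79 for Abca1. They were 2.47 and 2.20 for Nceh1, 1.55 and 2.46 for Soat1, and 1.71 and 2.38 for Lpl. For Abcg1 they were 1.89 and 1.12, and for Lipa 1.798 and 2.66. Libraries of both number ranges entered the choice of these genes, so nothing is read from how alike the changes are. At Day 15 the changes were 3.28 and 1.82 for Apoe and 2.39 and 3.75 for Plin2. The further lipid genes called at Day 5, described below, were less even in part. Their Day 5 changes were 3.73 and 0.82 for Ncor1, 1.92 and 0.50 for Nr1h2, and 2.37 and 1.20 for Lpin2. For Cd36 they were 2.06 and 1.52, for Msr1 1.71 and 3.05, and for Lamp2 2.73 and 2.64.

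The rest of the pathway was read from 98 further lipid genes in 5 lists, all in the table, of which 30 passed the filter. At Day 5, 6 of the 30 were called higher and 0 lower, against 6.02% and 0.0232% of all tested genes, and their median change was 0.67. None of the 6 calls was made after quantile normalization, after scaling to one RPKM sum, or with detected genes in the fit. The filter asks for 7 libraries, so a gene can pass it through Day 5 libraries alone. Without the filter 1 of 97 further lipid genes was called, Lamp2. These lists were not picked for how the genes moved, but earlier results of these data were known for some of them.

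Uptake and lysosome genes held 3 of the 6. The scavenger receptor Msr1, which takes up modified lipoproteins, rose by 2.31 (SE 0.55), the fatty acid receptor Cd36 by 1.78 (SE 0.49) and the lysosomal membrane protein Lamp2 by 2.67 (SE 0.63), with limma adjusted p of 0.0120, 0.0263 and 0.0110. All 12 tested genes of that list lay above 0, against 84.9% of all tested genes, with a median of 1.13, but 10 of 12 did after quantile normalization or sum scaling (medians 0.41 and 0.40). With detected genes in the fit, 8 of 12 did (median 0.25). After quantile normalization and after sum scaling the limma adjusted p was 0.116 and 0.123 for Msr1 and 0.101 and 0.127 for Lamp2. Msr1 is also among the macrophage markers above. The Cd36 call was lost without Day 5 replicate 3 (limma adjusted p = 0.0699).

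Among receptor partners, Nr1h2, which encodes LXR beta, rose by 1.20 (SE 0.33, limma adjusted p = 0.0263). Its mean was 0.13 RPKM in controls and 2.02 RPKM at Day 5, and it lost its call without Day 5 replicate 1 or 3 (limma adjusted p up to 0.0618). The corepressor Ncor1 rose by 2.27 (SE 0.71, limma adjusted p = 0.0443), a call lost without any of Day 5 replicates 1, 3, 4, 6 and 10 or Control replicates 1, 3, 4, 6, 7, 8 and 9 (limma adjusted p from 0.0544 to 0.110). Of 24 entries in that list 9 were tested, and the partners Rxra, Rxrb and Rxrg and the apolipoproteins Apoc1, Apoc2 and Apoc4 were below the filter. The LXR targets Srebf1 at 0.60, Mylip at 0.45 and Arl4c at 1.01 did not pass (limma adjusted p from 0.224 to 0.576).

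Of 26 other droplet and neutral lipid genes 5 were tested. Lpin2, a phosphatidate phosphatase on the route to triglyceride, rose by 1.76 (SE 0.54, limma adjusted p = 0.0440), a call lost without any of Day 5 replicates 1, 3, 4, 8 and 10 or any control but replicate 2 (limma adjusted p from 0.0516 to 0.111). All other Plin family genes and the triglyceride synthases Dgat1 and Dgat2 were below the filter, so Plin2 was the one droplet coat gene tested.

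Cholesterol synthesis was scarcely measured, with 4 of 24 genes tested, and 0 of 4 were called in limma or had an unadjusted p under 0.05 at Day 5. All 4 lay below 0, as they did under each scaling tried, with Sqle, the squalene epoxidase, at -0.73 (SE 0.40) and Dhcr7, the last-step reductase, at -0.43 (SE 0.43; limma adjusted p = 0.240 and 0.548). None of the 4 sterol hydroxylases passed the filter. At Day 15, 0 of the 30 genes were called in limma and 2 had an unadjusted p under 0.05 (8.87% of all tested genes did), Srebf1 at 1.57 (SE 0.65) and Sqle at -1.16 (SE 0.42), with limma adjusted p of 0.446 and 0.302. Between the stroke days 0 of 30 were called in limma and 8 had an unadjusted p under 0.05, as did 14.7% of all tested genes. The smallest was Msr1, at -2.22 (SE 0.60, limma adjusted p = 0.183).

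**Figure D4:**
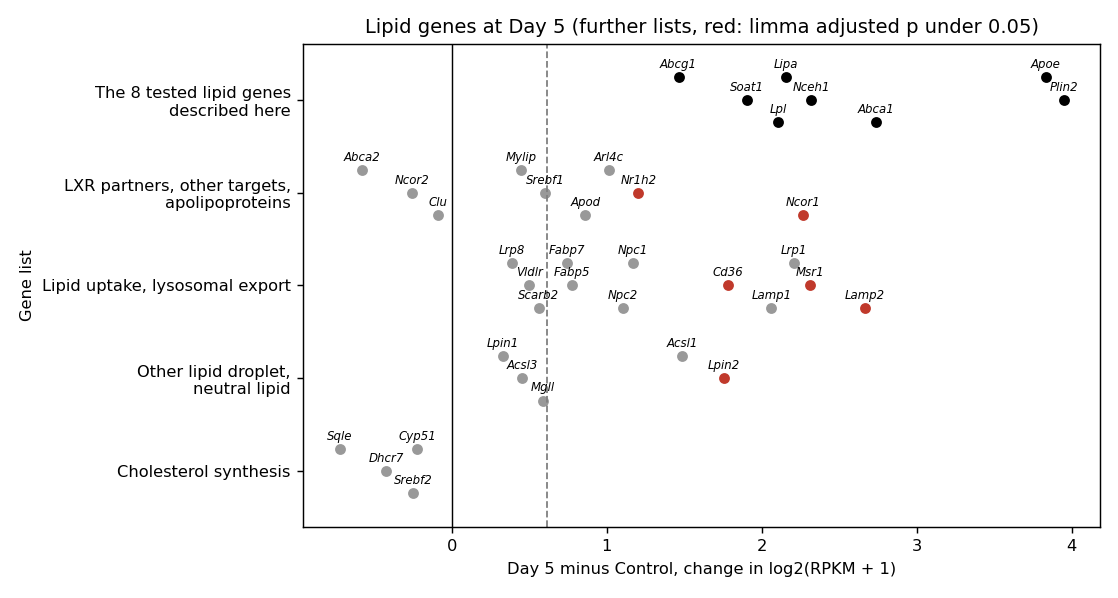
Change in log2(RPKM + 1) at Day 5 against Control for the 8 tested lipid genes described above and for 30 tested genes of 4 further lipid lists, 1 point per gene. Genes of the further lists are red where the limma adjusted p is under 0.05 and grey otherwise, the 8 are black, with the median of all tested genes dashed at 0.61. As deposited, the uptake list lies wholly right of 0 and the 4 cholesterol synthesis genes left of it. Of the 12 uptake genes, 10 lie right of 0 after quantile normalization or sum scaling and 8 with detected genes in the fit.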

How the data were processed

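RNA of laser-captured mouse brain samples was amplified to cDNA and sequenced as paired reads, per the labels' protocols. CASAVA 1.8.3, STAR 2.1.4a and HTSeq with build mm9 are named in the submitters' processing notes. The deposited table holds RPKM made by the authors. The sources used here do not say which reads and gene lengths went into it, and reads of overlapping or similar genes cannot be told apart.

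Groups and replicate numbers came from the titles of the samples. Of 23351 genes, 4319 reached 1 RPKM in 7 or more libraries and were tested. All 3 groups were fitted with limma 3.58.1 in R 4.3.3 on log2(RPKM + 1), with an intensity trend and robust variance, two-sided, with Benjamini-Hochberg adjustment over 4319 genes and calls at an adjusted p under 0.05. The fit was tested on simulated data. Correlations and promoter searches used Python 3.11.15, numpy 2.4.6 and scipy 1.17.1.

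The 9 genes and the lists were chosen with earlier results of these data known. Named are all 9, the called genes of each further list (at most 5) or, with none called, its 2 smallest p, and the 5 genes most like the set mean. Other genes are named as below the filter or as known targets, chosen after their values were seen. Protein sequences were not used here. Alternatives were the pseudocount, filters, scalings, covariates, a replicate block, library weights, subsets of libraries and leaving out each library.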

Additional observations from a re-analysis of the deposited data

Results flagged for a closer look

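Of 27 combinations of a gene and a group, 3 held a library that stood apart from the others of its group by a Dixon test on log2(RPKM + 1), and chance flags about 1 in 20 groups. Lipa was 31.2 RPKM in Day 15 replicate 5, where the next library held 1.86. Nr1h3 was 2.04 RPKM in the same library, with the next at 0.024. In controls Nr1h3 was 0.137 RPKM in Control replicate 5, with the next at 0.053, levels near the limit of detection.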

How the results depend on the processing

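Since the Day 5 comparison chose the genes, their counts are given as a description and nothing is read from them. The count of 6 called genes at Day 5 became 2 of 9 without a filter on low values, 3 of 8 after quantile normalization (Apoe, Nceh1 and Plin2) and 3 of 8 after scaling to one RPKM sum without Rn45s (the same 3). Of all tested genes, 24 of 22610, 32 of 4319 and 31 of 4319 were called higher in these 3 settings. The count became 0 of 8 when detected genes per library entered as covariate, and 0 in numbers 1 to 6 alone and in 7 to 10 alone. Of all 4319 tested genes, 0, 4 and 4 were called higher there. In these 3 settings 4, 5 and 7 of the 8 had an unadjusted p under 0.05 in limma, a share not given here for all tested genes. Leaving out each library gave a count of 4 to 7. It became 7 with a pseudocount of 0.1 and with library weights, Lipa being added in both. At a mean RPKM of at least 5 it was 5 of 6, Lipa among them. Of all tested genes, 550 of 4319, 590 of 4319 and 117 of 1142 were called higher in these 3. Every change that an alternative gave at Day 5 was above 0; at a mean RPKM of at least 5, Soat1 and Nceh1 were not tested. The median change of all genes at Day 5, 0.61 as deposited, was 0.39 under upper-quartile scaling (Apoe 3.44), 0.16 under sum scaling (Apoe 3.03) and 0.088 under quantile normalization (Apoe 3.14). The 260 genes called higher at Day 5 became from 0 (covariate) to 590 (library weights). The count of 6 further lipid genes became 1 of 97 without the filter, 3 of 13 at a mean RPKM of at least 5, 3 of 30 after upper-quartile scaling, and 0 after quantile normalization, after sum scaling and with the covariate, where 8, 7 and 6 had an unadjusted p under 0.05. Of all 4319 tested genes, 94 were called higher after upper-quartile scaling. At Day 15 the count of 0 became 1 (Plin2) with a pseudocount of 0.1, at a mean RPKM of at least 5 and with library weights. Called higher there were 36 of 4319, 11 of 1142 and 27 of 4319 tested genes.

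Signs turned for Soat1 at Day 15 against control (-0.0065 after sum scaling). Between the stroke days they turned for Abca1 (0.33 with the covariate), for Abcg1 (0.069 after quantile normalization, 0.43 with the covariate, and from -0.76 to 0.076 leaving out each library) and for Plin2 (0.15 in numbers 7 to 10 alone). The cause was not tested.

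With the replicate number as a block, 7 of 8 genes were called at Day 5, Lipa again being added, and 0 at Day 15. Of all 4319 tested genes, 498 and 4 were called higher. The numbers did not pair the libraries: over 20 same-numbered pairs of different groups, deviations from group means correlated at -0.057 to 0.084. Read depth is unknown, so values near 0 cannot be told from missed transcripts.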
